A study of Mus musculus with 4 samples.

Results

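Adra2b, Spon2, Fut2, Vipr2, Itih2, Ulbp1 and Xkr4 are 7 genes for proteins that sit in cell membranes, act in the secretory pathway or are released from the cell. They were picked from a table of 24421 genes because their normalised read counts in both Ddx6 knockout libraries were more than 1 on the log2 scale, which is 2-fold, above those of wild-type embryos of either stage. In all, 108 genes met that criterion, which is 0.750% of the 14393 genes kept by a minimum of 10 counts in at least 1 library. All 7 passed this minimum, but Fut2, Vipr2 and Itih2 passed it only through a KO library. Since the knockout against wild-type differences chose the genes, those differences are given below as a description, with no test.

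Whole embryos of ICR mice gave the RNA of 4 libraries. E7.5 WT and E8.5 WT were wild-type embryos at embryonic days 7.5 and 8.5, with 1 library each, and KO1 and KO2 were Ddx6 -/- embryos of embryonic day 8.5. Per the study's methods, the knockout allele lacks exon 5 of Ddx6 and came from a floxed allele crossed to CAG-Cre mice, so the gene was lost in the whole embryo and not in a chosen tissue. Per the paper, KO1 pooled 1 embryo from before head-fold formation and 1 with a head-fold. KO2 pooled 3 embryos, all from before head-fold formation, so that stage of morphology and library cannot be told apart. The study genotyped the E8.5 embryos from extraembryonic tissue or yolk sac, and how much of such tissue each library held is not stated. Total counts lay between 8198402 (KO1) and 12562640 (E8.5 WT). Ddx6 itself had 2943 and 5715 counts in wild-type E7.5 and E8.5 embryos and 706 and 929 in KO1 and KO2, with log2 changes of -2.47 and -2.61 relative to E8.5 WT. Of 8 embryo markers, Pou5f1, Sox2, Otx2, T and Foxa2 had at least 237 counts in every library, while Meox1, a marker of somites, had 3, 390, 235 and 6 counts in the E7.5 and E8.5 wild types, KO1 and KO2. In the same order Pax6 had 10, 180, 31 and 14 and Mesp1 had 570, 52, 52 and 741.

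DDX6 is a DEAD-box RNA helicase of processing bodies, the cytoplasmic granules that hold translationally silenced mRNA. It binds the deadenylase machinery recruited by microRNAs (miRNAs) and takes part in both translational repression and decapping of their targets. The 7 proteins have unrelated duties. Adra2b and Vipr2 encode G protein-coupled receptors, Ulbp1 a ligand of a natural killer cell receptor, Xkr4 a membrane protein of phospholipid scrambling, Fut2 a fucosyltransferase of the Golgi, and Spon2 and Itih2 secreted proteins of the extracellular matrix.

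Because DDX6 acts with miRNAs, the 3′ untranslated regions (3′ UTRs) of the 7 transcripts were searched for 7-base matches to the seed, bases 2 to 8, of miRNAs known from pluripotent and neural cells. The mature miRNAs with at least 1 match are shown 5′ to 3′ from RefSeq, with the seed in capitals. They have different seeds and form no shared seed group.
mmu-let-7a-5p: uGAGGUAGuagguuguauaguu
mmu-miR-291a-3p: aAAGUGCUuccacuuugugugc
mmu-miR-92a-3p: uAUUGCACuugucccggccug
mmu-miR-19b-3p: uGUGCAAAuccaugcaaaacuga
mmu-miR-9-5p: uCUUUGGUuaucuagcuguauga

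The matches in the members' 3′ UTRs follow, 5′ to 3′ on the transcript in GENCODE vM21 (GRCm38), with the seed match in capitals and 10 bases on either side. They are shown because they are the places where an miRNA of this set could pair.
Adra2b, let-7a-5p: tagggtgtctCTACCTCctggttgtct
Ulbp1, miR-291a-3p: ttttacaagcAGCACTTggctcccttc
Ulbp1, miR-92a-3p: tcccttctgaGTGCAATgcagacattg
Xkr4, miR-291a-3p: aatcctatgcAGCACTTatatggcttt
Spon2, miR-19b-3p: cgtgggcagtTTTGCACcgtttcccac
Fut2, miR-9-5p: ccgacagtggACCAAAGgccaggccag
Vipr2, miR-9-5p, upstream match: cattccctggACCAAAGataagtcaaa
Vipr2, miR-9-5p, downstream match: tcaggaaatcACCAAAGtaggggcccc

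The let-7a match of Adra2b lies on the plus strand of chromosome 2, 127366573 to 127366579. The Ulbp1 matches lie on the minus strand of chromosome 10, 7445344 to 7445350 for miR-291a-3p and 7445324 to 7445330 for miR-92a-3p, so that their starts are 20 bases apart. The Xkr4 match lies on the minus strand of chromosome 1, 3215191 to 3215197. In Spon2 the match is on the minus strand of chromosome 5, 33214345 to 33214351. In Fut2 it is on the minus strand of chromosome 7, 45649599 to 45649605. Vipr2 held its matches on the plus strand of chromosome 12, 116144841 to 116144847 and 116145513 to 116145519. Itih2, with a 3′ UTR of 161 bases, held no match to any of the 6 miRNAs searched, and miR-17-5p had none in any member.

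No seed was common to the members. Only the miR-291a-3p and miR-9-5p matches occurred in more than 1 of the 7, in Ulbp1 and Xkr4 and in Fut2 and Vipr2. Among 13250 kept genes with a 3′ UTR, 9.57% held the let-7a match, 15.5% the miR-291a-3p match, 6.87% the miR-92a-3p match, 11.8% the miR-19b-3p match and 12.7% the miR-9-5p match. A letter match is a description and not a site of regulation, and longer 3′ UTRs hold more of them. The members' 3′ UTRs ran from 161 bases in Itih2 to 2513 in Ulbp1, with a median of 1712 against 968 over 13448 kept genes with a coding transcript.

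Promoter sequence was at hand from RefSeq (GRCm38.p6) for Adra2b, Vipr2, Itih2 and Ulbp1, and the 250 bases before the start were searched on both strands for the cores of 7 known promoter elements. These were TATAAA, bound by the general transcription machinery, and CCAAT, which is recognised by nuclear factor Y. Further elements were GGGCGG, the GC box of Sp-family factors, and CACGTG, the E-box of basic helix-loop-helix factors. The palindrome TGACGTCA is the cAMP response element, the related motif TGANTCA is bound by AP-1, and the octamer ATGCAAAT by POU-family factors. A window of 30 bases around 1 match is shown for each gene in its own direction, with the match in capitals, to let the members be compared. CCGCCC is GGGCGG read on the other strand.
Adra2b, chr2:127363100-127363129, plus strand, GGGCGG: tggtcggatcgcCCGCCCcgcctccttccc
Vipr2, chr12:116077696-116077725, plus strand, GGGCGG: ggactgggccgagGGGCGGggccgggactt
Itih2, chr2:10130814-10130843, minus strand, TGANTCA: ctgtttgacccTGACTCAtgctcacagccc
Ulbp1, chr10:7473658-7473687, minus strand, CCAAT: tcagcctgccagCCAATcagttcctggcac

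Not every match found is shown. The receptor genes Adra2b and Vipr2 both had GGGCGG, the core of the GC box. Over 27025 promoters of the same length, 32.9% held GGGCGG, 34.5% held CCAAT and 6.87% held TGANTCA. The GC content of the 250 bases was 66.0% in Adra2b, 65.2% in Vipr2, 59.2% in Ulbp1 and 43.2% in Itih2, against a median of 52.0%. No motif was common to all 4 of these promoters. The RefSeq starts of Itih2 and Ulbp1 lie inside the GENCODE spans of these genes, so the searched bases of Itih2 lie wholly, and those of Ulbp1 partly, inside the GENCODE gene.

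Adra2b, the α2B-adrenergic receptor, binds adrenaline and noradrenaline and couples to inhibitory G proteins. The gene lies on chromosome 2, 127363208 to 127367221, plus strand. It had 52 and 47 counts in wild-type E7.5 and E8.5 embryos and 179 and 501 in KO1 and KO2. Scaled to a common library size (CPM) by TMM, edgeR's trimmed mean method, these are levels of 4.37, 3.82, 21.3 and 41.1. Here and below, 4 values of a gene or list stand in the order E7.5 wild type, E8.5 wild type, KO1, KO2, and a pair of changes in the order KO1, KO2. Both KO libraries lay above both WT libraries, with no overlap. Its exact 95% Poisson intervals, which like all intervals here cover counting error only, were 3.27 to 5.73 CPM in E7.5 WT, 2.81 to 5.09 in E8.5 WT, 18.3 to 24.7 in KO1 and 37.6 to 44.9 in KO2. The KO1 level was 5.57-fold that of E8.5 WT (exact Clopper-Pearson 95% interval 4.02 to 7.86), and the KO2 level was 10.8-fold (7.96 to 14.8). Adra2b thus had the highest counts of the 7 in each library, and the KO libraries differed from each other more than in any other member. As a mean over both KO libraries, the log2 change relative to E8.5 WT was 2.90 ± 0.67 (SD, n = 2).

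Vipr2 encodes the receptor VPAC2, which binds vasoactive intestinal peptide (VIP) and pituitary adenylate cyclase-activating polypeptide (PACAP) and couples to stimulatory G proteins. The gene lies on chromosome 12, 116077726 to 116146261, plus strand. It had 2 and 2 counts in wild-type E7.5 and E8.5 embryos and 15 and 14 in KO1 and KO2, which are 0.168, 0.163, 1.79 and 1.15 CPM. The KO counts were few and close to each other, and both WT counts were under the floor of 3 counts. The ratio of KO1 to E8.5 WT was 10.98 with a counting interval of 2.55 to 98.9, and that of KO2 to E8.5 WT was 7.06 (1.62 to 64.0). On the log2 scale with a prior count of 2, the mean relative to E8.5 WT was 2.24 ± 0.40 (SD, n = 2).

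Ulbp1, also named MULT1, is a transmembrane protein related to MHC class I that engages the NKG2D receptor of natural killer and T cells. Its gene spans 7440362 to 7473638 of chromosome 10 on the minus strand. Counts were 5 and 31 in wild-type E7.5 and E8.5 embryos and 77 and 146 in KO1 and KO2, and the levels were 0.420, 2.52, 9.17 and 11.98 CPM. All 4 libraries differed in level, with E7.5 WT lowest, and only the KO intervals of 7.24 to 11.5 CPM and 10.1 to 14.1 CPM overlapped. KO1 stood 3.64-fold above E8.5 WT (2.37 to 5.71) and KO2 4.75-fold (3.21 to 7.24). Against E7.5 WT the ratios were 21.8 (8.95 to 69.1) and 28.5 (11.9 to 89.1), the largest among the members with counts above the floor in both libraries.

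Xkr4 belongs to the XK family, and its protein exposes phosphatidylserine on the cell surface after cleavage by caspases. The gene lies on chromosome 1, 3205901 to 3671498, minus strand. Counts of 12 and 15 in wild-type E7.5 and E8.5 embryos and 30 and 58 in KO1 and KO2 gave 1.01, 1.22, 3.57 and 4.76 CPM. The KO libraries were above the WT libraries, and against E8.5 WT by less than for the other 6 members. KO1 was 2.93-fold above E8.5 WT (1.53 to 5.85) and KO2 was 3.90-fold above it (2.18 to 7.41). By the smallest of its 4 log2 changes, 1.42, Xkr4 ranked 30 among all kept genes.

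Fut2 encodes an α1,2-fucosyltransferase that adds fucose to glycans in the Golgi and so makes the H antigen of secretions and epithelia. The gene is on chromosome 7, 45648591 to 45666394, minus strand. It had 4 and 8 counts in wild-type E7.5 and E8.5 embryos and 33 and 47 in KO1 and KO2, or 0.336, 0.651, 3.93 and 3.86 CPM. The KO levels were nearly equal, and the WT levels overlapped each other in their intervals. The ratio to E8.5 WT was 6.04 in KO1 (2.73 to 15.1) and 5.93 in KO2 (2.77 to 14.5). With an SD of 0.018 between the KO libraries around a mean log2 change of 2.30 (n = 2), Fut2 was the member on which the KO libraries differed least.

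Spon2, or mindin, is a secreted matrix protein that binds integrins and bacterial surface molecules. Its gene lies on chromosome 5, 33198184 to 33218455, minus strand. Counts were 12 and 12 in wild-type E7.5 and E8.5 embryos and 72 and 76 in KO1 and KO2. In CPM these are 1.01, 0.976, 8.57 and 6.24, so the WT libraries were level and the KO libraries well above them. The ratio to E8.5 WT was 8.78 in KO1 (4.73 to 17.8) and 6.39 in KO2 (3.45 to 12.9). Its smallest log2 change, 2.43, was the highest of all 14393 kept genes, followed by Fut2 at 2.28 and Adra2b at 2.24. Of the 108 genes, these were the 3 whose smallest change was above 2.

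Itih2 encodes a heavy chain of the inter-α-trypsin inhibitor, a serum protein whose heavy chains are transferred onto hyaluronan. It lies on chromosome 2, 10094593 to 10131396, minus strand. Counts were 0 and 3 in wild-type E7.5 and E8.5 embryos and 11 and 25 in KO1 and KO2, which are 0, 0.244, 1.31 and 2.05 CPM. The gene was thus at or under the floor of 3 counts in both WT libraries and low in the KO libraries. Against that floor in E7.5 WT, KO1 was at least 5.19-fold higher and KO2 at least 8.13-fold higher. The exact counting intervals of the same ratios, taken against the count of 0, start lower, at 3.55 and 6.14. The ratio to the 3 counts of E8.5 WT was 5.37 in KO1 (1.42 to 29.96) and 8.40 in KO2 (2.56 to 43.5).

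**Figure D1:**
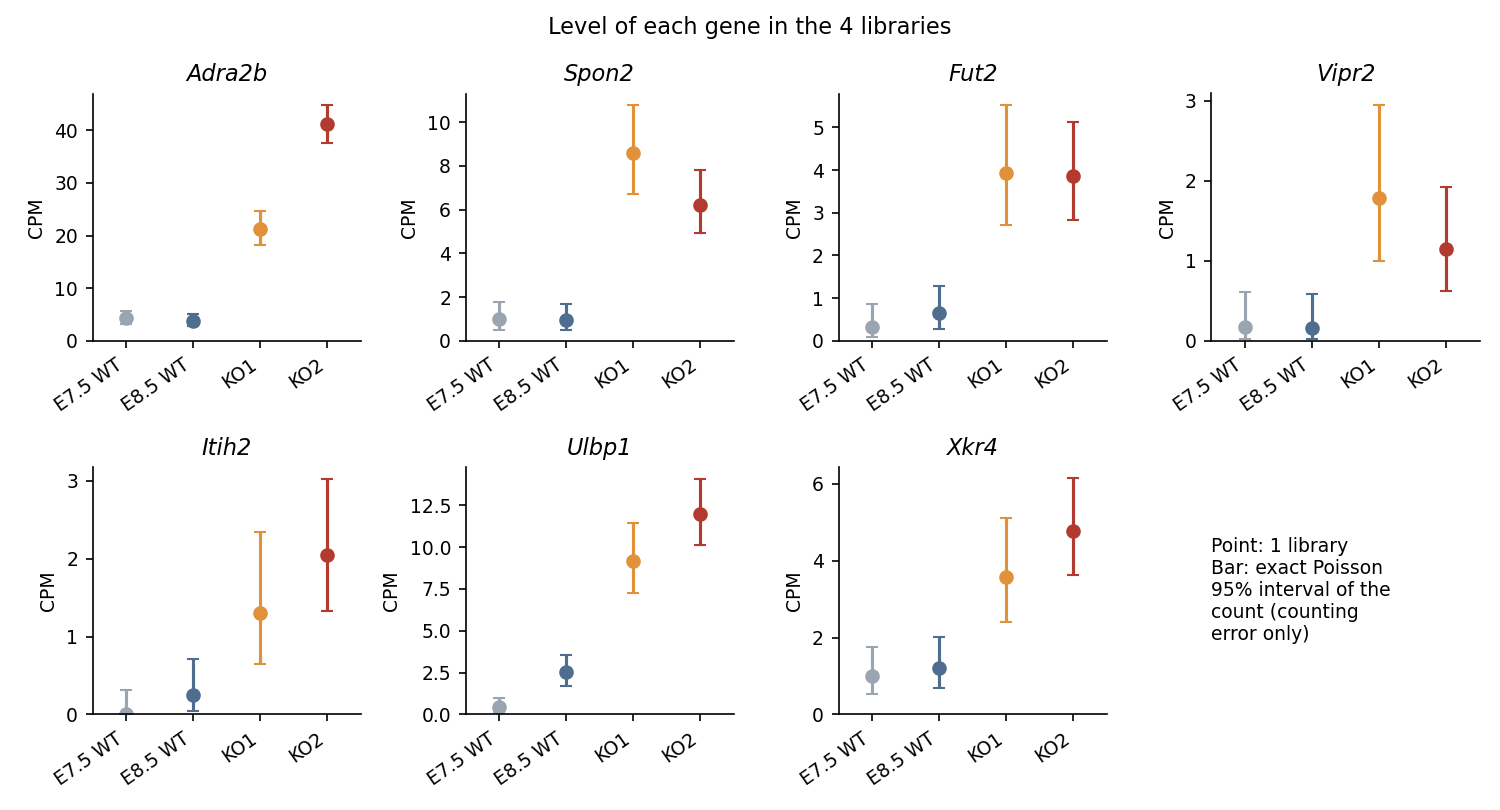
Level of each of the 7 genes in CPM (linear axis from 0, one panel a gene) in each wild-type and KO library. Points are single libraries and bars exact Poisson 95% intervals of the count, which cover counting error only. In every panel the KO points lie above the WT points, from 41.1 CPM for Adra2b in KO2 to 1.15 CPM for Vipr2 in KO2.

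Set side by side, the members' changes against E8.5 WT ran from 1.42 to 2.92 in KO1 and from 1.82 to 3.37 in KO2. Against E7.5 WT they ran from 1.66 to 3.96 and from 1.94 to 4.34. The medians over the 7 were 2.31 and 2.28 against E8.5 WT, where the medians over all kept genes were -0.0083 and -0.0013. The KO libraries are common to all 4 of these comparisons, so the values are not independent of each other. At the edge of the criterion, Thsd7a, Slc47a1 and B3gnt8 were the last genes inside, with smallest changes of 1.007, 1.003 and 1.001, and Cybrd1, Dusp26 and Parp12 were the next outside, at 0.997, 0.997 and 0.972. Slc47a1 came inside with 6, 2, 10 and 15 counts, and Cybrd1 fell outside with 11, 7, 17 and 34. In the opposite direction, 0.361% of kept genes were more than 1 below both WT libraries in both KO libraries.

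**Figure D2:**
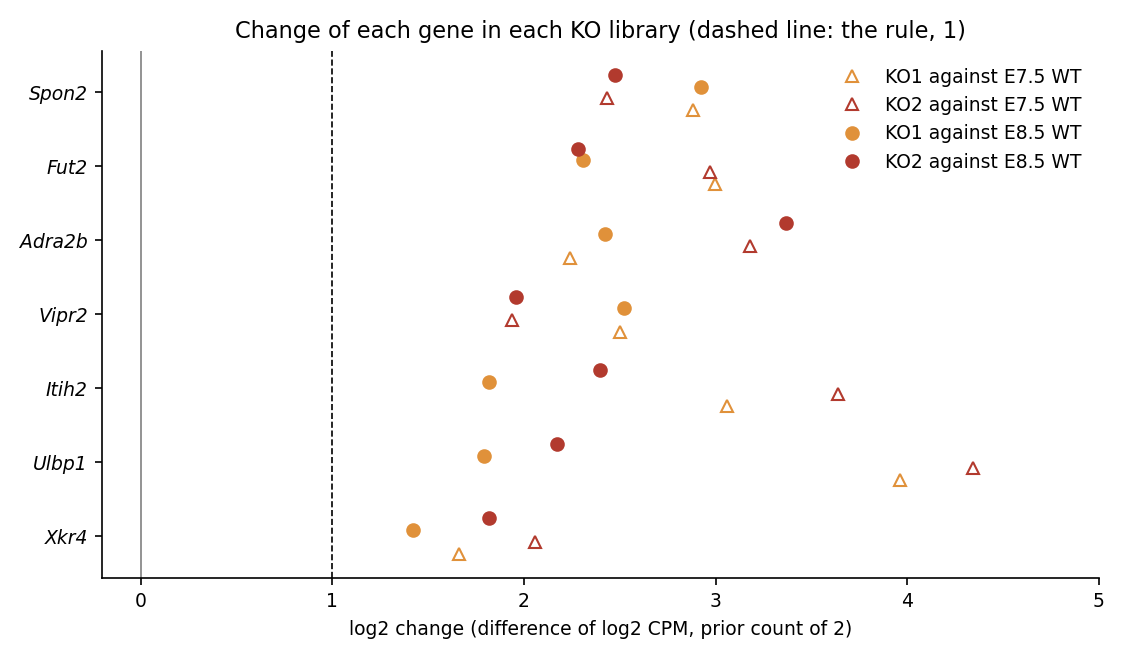
Log2 change of each of the 7 genes in KO1 and KO2 against each WT library, as a difference of log2 CPM with a prior count of 2. Triangles are against E7.5 WT, filled circles against E8.5 WT, and the dashed line is the criterion of 1. The genes are ordered by their smallest change, from 1.42 for Xkr4 to 2.43 for Spon2. Ulbp1, Itih2, Fut2 and Xkr4 have their larger changes against E7.5 WT.

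Levels can be compared between genes only per length. In CPM per kilobase of transcript, KO1 had Adra2b at 5.42, Spon2 at 4.19, Ulbp1 at 2.40, Fut2 at 1.33, Xkr4 at 0.983, Vipr2 at 0.528 and Itih2 at 0.423. The Poisson intervals of Spon2 and Ulbp1, and of Ulbp1 and Fut2, did not overlap, and those of the other neighbours in the order did. In KO2, Adra2b at 10.4 CPM per kilobase stood apart from Ulbp1 at 3.14 and Spon2 at 3.05, which overlapped each other. Xkr4 at 1.31, Fut2 at 1.31, Itih2 at 0.662 and Vipr2 at 0.340 followed. In the WT libraries every neighbour in the order overlapped, with Adra2b highest (1.11 for E7.5 WT, 0.972 for E8.5 WT). In whole embryos, a lower or higher level may come from the number of cells of a type or from the RNA per cell, and these cannot be told apart.

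The difference between the KO libraries and that between the WT stages were not used to choose the genes. Adra2b was 1.93-fold higher in KO2 than in KO1 (exact Clopper-Pearson 95% interval 1.62 to 2.30), and its interval alone among the 7 lay clear of 1. Ulbp1 had a ratio of 1.31 (0.985 to 1.75) and Spon2 a ratio of 0.727 (0.520 to 1.02), both of which reach 1. For the other 4 members the intervals were wider as ratios, the widest being 0.288 to 1.43 for Vipr2 and 0.743 to 3.53 for Itih2. No member was more than 1 above KO1 in KO2 on the log2 scale, as 5.99% of kept genes were, and 3 of the 7 (Spon2, Fut2 and Vipr2) had a ratio under 1.

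Between the WT stages, Ulbp1 alone had an interval clear of 1. It was 6.0-fold higher in E8.5 WT than in E7.5 WT (2.31 to 19.8), a change of more than 1 on the log2 scale that 12.2% of kept genes had in that direction. Adra2b had a ratio of 0.875 (0.577 to 1.32) and Spon2 one of 0.968 (0.398 to 2.36). Fut2 at 1.94 (0.519 to 8.78) and Xkr4 at 1.21 (0.529 to 2.83) had intervals too wide at these counts to place them. No ratio is given for Vipr2 and Itih2, which were at or under the floor in both stages.

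The relatives of the 7, which are their ligands, partner proteins, paralogs and pathway enzymes, were listed as 123 genes, of which 121 were in the table and 89 passed the count minimum. Among these 89, 3 (Adrb1, Sec1 and Raet1e) were more than 1 above E8.5 WT in both KO libraries, where 3.44% of all kept genes were, and 2 (Rspo1 and Thbs4) were more than 1 below it in both, where 1.79% of all kept genes were. Raet1e alone was above both WT libraries. The shares of 3.37% and 2.25% were near those of all genes. Median log2 changes of the 89 against E8.5 WT were 0.14 in KO1 and 0.03 in KO2.

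Tests across all genes called none of the relatives. Only the KO arm has replicate libraries, and the test against both WT libraries takes their difference in stage as spread. With E8.5 WT as the reference of both KO libraries, the edgeR quasi-likelihood test called 0 of 14393 genes (0%) at a Benjamini-Hochberg adjusted p under 0.05, with 1039 at an unadjusted p under 0.05. Against both WT libraries it called 0 (0%) as well, with 565 at an unadjusted p under 0.05. DESeq2 called 35 and 32 genes, none of them a relative. Of the 89 relatives, 5 and 7 had an unadjusted edgeR p under 0.05, and their smallest adjusted p by edgeR was 0.669 and 0.900.

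Of the adrenergic receptors and catecholamine genes, 12 of 18 passed the count minimum and 1, Adrb1, was more than 1 above E8.5 WT in both KO libraries. Adra2a, the closest α2 paralog of Adra2b at 58.6% identical residues, had 22 and 59 counts in wild-type E7.5 and E8.5 embryos and 27 and 28 in KO1 and KO2. Adra2c, at 57.5% identity, had 14, 9, 11 and 14. Neither paralog was past the criterion against E8.5 WT in both KO libraries. Adrb1, the β1-adrenergic receptor, had 26 and 6 counts in wild-type E7.5 and E8.5 embryos and 23 and 15 in KO1 and KO2, and its log2 changes of 2.13 and 1.08 against E8.5 WT became 0.30 and -0.75 against E7.5 WT. Of the enzymes that make noradrenaline and adrenaline, Th, Dbh and Pnmt had at most 4 counts in any library, and Ddc, which also acts in serotonin synthesis, had 300, 214, 198 and 293.

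Of the VIP and PACAP ligands and class B receptors, 9 of 16 passed the minimum and none was past the criterion of 1 against E8.5 WT in both KO libraries. Vip had 0 counts in all 4 libraries, and Adcyap1, which encodes PACAP, had 1, 7, 1 and 2. Vipr1, the paralog that binds the same ligands with 50.8% identical residues, had 26 and 12 counts in wild-type E7.5 and E8.5 embryos and 5 and 9 in KO1 and KO2, with log2 changes of -0.58 and -0.33 against E8.5 WT where those of Vipr2 were 2.52 and 1.96. Adcyap1r1, the PACAP receptor, had 155, 100, 74 and 211. Of the 16 G protein and adenylyl cyclase genes that serve both receptors, all passed the minimum and 0 were past the criterion against E8.5 WT in both KO libraries. The stimulatory subunit Gnas had log2 changes of 0.04 and -0.02, and the inhibitory Gnai2 0.30 and 0.19.

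Among the NKG2D ligands and receptor genes, 10 of 11 were in the table and only Raet1e and H60b passed the minimum. Raet1e, another NKG2D ligand, had 2 and 5 counts in wild-type E7.5 and E8.5 embryos and 14 and 15 in KO1 and KO2. Its log2 changes were 1.66 and 1.27 relative to E8.5 WT, with 2.41 and 2.02 relative to E7.5 WT. Raet1e passed the minimum only through the KO libraries, and its protein shares 22.3% identical residues with that of Ulbp1. H60b had 7, 7, 5 and 15 counts, and Raet1b, Raet1c and H60c had 0 throughout. The receptor gene Klrk1 had 1 count, in KO2.

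Of the XK family and its partners, 15 of 16 passed the minimum and none was past the criterion against E8.5 WT in both KO libraries. Xkr7, the closest paralog of Xkr4 at 52.0% identical residues, had 10 and 15 counts in wild-type E7.5 and E8.5 embryos and 21 and 41 in KO1 and KO2. Its log2 changes of 0.94 and 1.34 relative to E8.5 WT, with 1.39 and 1.797 relative to E7.5 WT missed the criterion in 1 of the 4 comparisons. Xkr6, at 51.7% identity, had 23, 23, 13 and 24. Xkr8, the family member of most cell types, had 130, 96, 98 and 85.

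Of the fucosyltransferases and the GDP-fucose supply, 16 of 18 passed the minimum. Sec1, the neighbouring paralog of Fut2 at 76.3% identity, had 20 and 2 counts in wild-type E7.5 and E8.5 embryos and 8 and 16 in KO1 and KO2. Its KO counts were above E8.5 WT but not above E7.5 WT, with log2 changes of -0.72 and -0.32 there, unlike those of Fut2. Fut1, which makes the same linkage, had 3, 0, 7 and 6 counts and was under the minimum. None of the remaining kept genes of this list was past the criterion against E8.5 WT in both KO libraries. Fut9, which makes the Lewis X antigen of early embryonic cells, had 54 and 70 counts in wild-type E7.5 and E8.5 embryos and 63 and 111 in KO1 and KO2.

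Of the spondins, R-spondins and thrombospondins, 9 of 11 passed the minimum. Spon1, at 35.9% identity to Spon2, had 177 and 307 counts in wild-type E7.5 and E8.5 embryos and 158 and 301 in KO1 and KO2, with log2 changes of -0.41 and -0.02 against E8.5 WT. Rspo1, an enhancer of Wnt signalling, had 37, 84, 27 and 24, and its changes were -1.05 and -1.71. Thbs4 had 19, 126, 35 and 60, with changes of -1.26 and -1.03. Both Rspo1 and Thbs4 were below E8.5 WT in this family where Spon2 was above it, but without the TMM factors neither passed the criterion in both KO libraries.

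Of the inter-α-trypsin inhibitor and hyaluronan genes, 10 of the 16 in the table passed the minimum and none was past the criterion against E8.5 WT in both KO libraries. Against E7.5 WT, Cd44 (1.95 and 1.38) and Vcan (3.72 and 1.95) were more than 1 above and Ambp (-1.63 and -1.12) more than 1 below. Of the other heavy chain genes, Itih1 had 1, 3, 1 and 1 counts, Itih3 had 6, 2, 1 and 5, and Itih4 had 0, while Itih5 had 62 and 144 counts in wild-type E7.5 and E8.5 embryos and 83 and 113 in KO1 and KO2. Ambp, which encodes bikunin, the light chain to which Itih2 is joined, had 79, 67, 17 and 36, with log2 changes of -1.35 and -0.85 against E8.5 WT where those of Itih2 were 1.82 and 2.40.

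**Figure D3:**
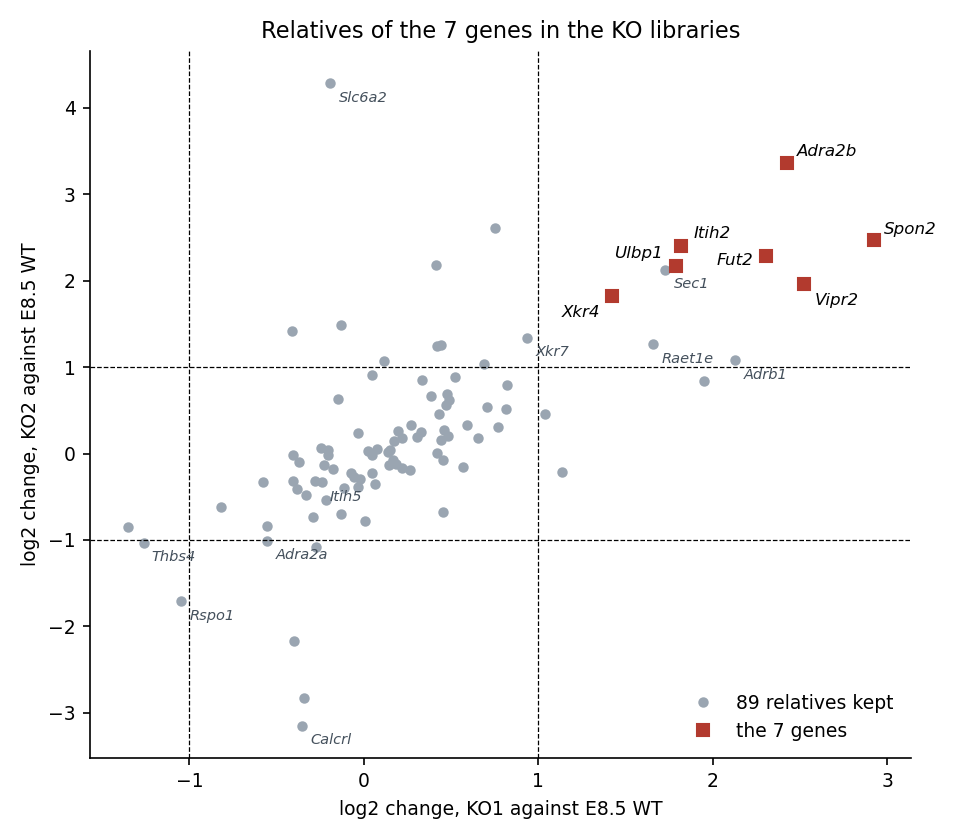
Log2 change against E8.5 WT in KO1 (horizontal axis) and KO2 (vertical axis) of the 89 relatives that passed the count minimum (grey circles) and of the 7 genes (red squares). Dashed lines mark 1 and -1. Only Adrb1, Sec1 and Raet1e among the relatives share the upper right corner with the 7 genes.

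The libraries also differed in markers of other cell types, and these values stand beside the members' levels. Summed over the 7, the level was 7.31 and 9.60 CPM in wild-type E7.5 and E8.5 embryos and 49.7 and 71.1 CPM in KO1 and KO2. Trophoblast markers summed to 252, 183, 425 and 1089 CPM. Hand1 gave 2570, 2229, 3544 and 4028 of the list's 3001, 2248, 3567 and 13266 counts. Prl3d1, a prolactin of trophoblast giant cells, gave 27 and 1 counts in wild-type E7.5 and E8.5 embryos and 3 and 4156 in KO1 and KO2. The prolactin genes Prl2c2, Prl4a1 and Prl7a1 had 4, 1 and 4 counts in KO1 and 1400, 431 and 3193 in KO2. Markers of maternal decidua summed to 131, 8.62, 15.1 and 137 CPM. Of the 10 trophoblast markers, 3, 5, 4 and 2 were at 0 counts. KO2 carried these markers at high level, and what part they have in the KO2 values of Adra2b was not tested.

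Natural killer cell markers bear on Ulbp1 as the ligand of an NK receptor. Granzymes and perforin of uterine natural killer cells summed to 3.28 and 0.244 CPM in wild-type E7.5 and E8.5 embryos and 3.57 and 23.1 CPM in KO1 and KO2. All 8 kept genes of the list were more than 1 above E8.5 WT in both KO libraries, where 3.44% of all kept genes were. In 2 of them, Gzmb and Prf1, both KO libraries were more than 1 above both WT libraries, as in 0.750% of all kept genes. The receptor genes Ncr1 and Klrb1c had at most 1 count in any library. Of the 8 kept granzyme and perforin genes 7 passed the minimum only through KO2, and their KO1 values rest on 2 to 7 counts against 0 or 1 in E8.5 WT. What part such cells have in the Ulbp1 values was not tested. Macrophage and antigen presentation markers summed to 12.8, 4.88, 5.24 and 23.8 CPM, and uterine epithelium markers to 6.39, 4.801, 2.98 and 3.04.

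Neuron markers summed to 74.5 and 88.2 CPM in wild-type E7.5 and E8.5 embryos and 146 and 169 CPM in KO1 and KO2. The members' sum rose in the same order, and so did the neural crest and glia list and the parietal endoderm list. Of the 7 kept genes of the neuron list, Dcx and Elavl3 were more than 1 above E8.5 WT in both KO libraries. Dcx was also above E7.5 WT in both. Isl1, with 45, 271, 109 and 78 counts, was lower than in E8.5 WT, at -0.76 and -1.76, and Neurog2 was at -0.47 and -0.68 and Elavl4 at -0.06 and -0.11. Neural crest and glia markers summed to 32.5, 37.3, 37.5 and 43.9. Parietal endoderm markers summed to 2059, 2072, 2437 and 2773, in which Thbd had 838 counts in KO2 against 30 in KO1. The part of these cell types in the members' values was not tested.

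Lower in both KO libraries were the lists of visceral endoderm, at 5702, 4305, 2724 and 2724 CPM, and primitive erythroid cells, at 31.4, 247, 2.38 and 5.09 CPM. Itih2 and Ambp are liver-type plasma protein genes, a class that the visceral endoderm also makes. Ambp, Ttr and Apoa1 were below both WT libraries in both KO libraries, while Itih2 was above them. Against E8.5 WT, Ambp was at -0.85 in KO2 and Ttr at -0.89 in KO1, short of -1. Of the 9 visceral endoderm markers, 3 were more than 1 below both WT libraries in both KO libraries, where 0.361% of kept genes were. Hnf4a was at -0.07 and -0.03 against E8.5 WT and Amn at -0.18 and 0.19. What part this tissue has in the Itih2 values was not tested. Extraembryonic ectoderm markers summed to 587, 218, 173 and 376, and embryo proper markers to 859, 372, 385 and 830. In the extraembryonic ectoderm list, Eomes gave 3128 of the 4588 counts of KO2 and had 1333, 64 and 77 in the other libraries. Cdx2 of that list had 990, 1326, 653 and 150 counts, Elf5 had 795, 3, 3 and 10, and Esrrb had 532, 37, 22 and 33.

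**Figure D4:**
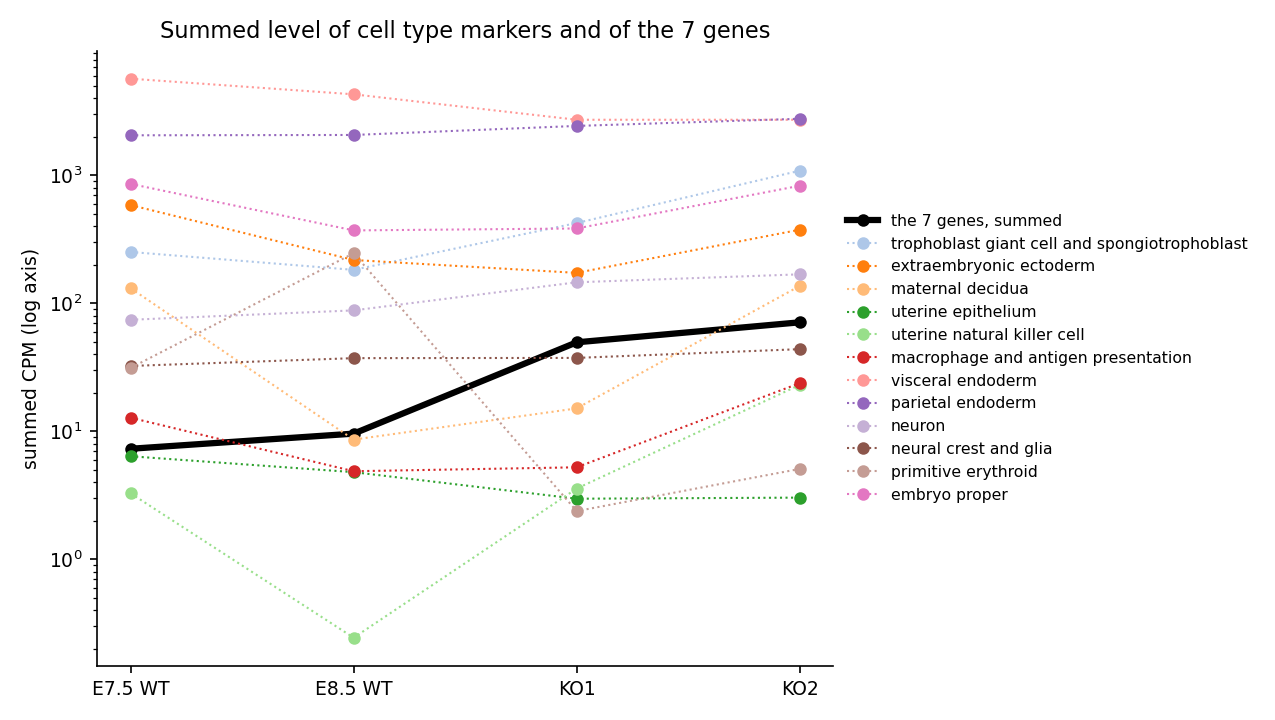
Summed CPM of the 7 genes (thick black line) and of 12 marker lists (dotted) in the 4 libraries, on a log axis. Lines only join the points of a list. The members' sum is 7.31 and 9.60 in the WT libraries and 49.7 and 71.1 in the KO libraries, while the trophoblast list is at 1089 and the decidua list at 137 in KO2.

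By position, the 7 genes are spread over 6 chromosomes, and only Adra2b and Itih2 share one. Of the nearest kept genes on each side, 13 in all since none precedes Xkr4, 0 were above both WT libraries and 2 (Gpat2 beside Adra2b and Sec1 beside Fut2) were above E8.5 WT in both KO libraries. Over all kept genes, 0.750% were above both WT libraries and 3.44% above E8.5 WT in both KO libraries. Sec1 was also counted among the relatives. Gpat2 had 17 and 10 counts in wild-type E7.5 and E8.5 embryos and 23 and 49 in KO1 and KO2, with log2 changes of 1.56 and 2.08 relative to E8.5 WT, with 0.86 and 1.39 relative to E7.5 WT. Kin, 1787 bases from Itih2, had changes of 0.11 and 0.08 against E8.5 WT, and Mamstr, 2070 bases from Fut2, had 0.78 and 0.55. Ctbp1 beside Spon2 was at -0.01 and -0.03, and Zfp386 beside Vipr2 at 0.14 and 0.14. Slc5a1, on the other side of Spon2, was at 0.15 and 1.06 with at most 21 counts.

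No exon of the 7 overlaps an exon of another annotated gene. Of all 50-base words of its transcript, Fut2 shares 5.47% with Sec1, Ulbp1 3.19% with 3 predicted genes, and Vipr2 0.480% with many genes, while Adra2b, Spon2, Itih2 and Xkr4 share 0. How reads from the shared words were assigned was not tested, so the values of Fut2, Ulbp1 and Vipr2 are uncertain by that part.

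By sequence the members resemble surface and secreted proteins in different ways. A stretch of 19 residues with mean Kyte-Doolittle hydropathy above 1.6, which marks a possible membrane span or signal peptide, was found in all 7, against 35.2% of 13448 kept genes with a coding transcript. There were 7 such stretches in Vipr2, 7 in Xkr4 and 6 in Adra2b, 2 in Ulbp1 and 1 each in Fut2, Itih2 and Spon2. A stretch starting within the first 30 residues was found in 5 of 7, all but Vipr2 and Xkr4, against 13.9% of the kept genes. Since the genes were gathered as surface and secreted ones, these shares follow from the choice. Transcript length had a median of 3383 bases against 3026, and transcript GC content a median of 50.1% against 50.9%, from 44.1% in Ulbp1 to 56.5% in Spon2.

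The genes most like each member were found by the distance between log2 CPM profiles over the 4 libraries, each centred on its own mean, among 12592 kept genes whose mean count was 20 or more. With 4 libraries this is a description of level alone. Bmper lay 0.12 from Xkr4 with 89 and 98 counts in wild-type E7.5 and E8.5 embryos and 199 and 358 in KO1 and KO2, the closest match of any member, followed by Kcnh4 at 0.24. Adra2b was nearest to Adgrg6 (0.45), which had 12, 9, 29 and 107 counts, and to Dcx (0.67). Lingo3, with 3, 11, 22 and 59 counts, was near both Itih2 (0.33) and Ulbp1 (0.92). Vipr2 was closest to Egfl6 (0.54) and Cfc1 (0.58), Spon2 to Bcan (0.69) and Emp3 (0.78), and Ulbp1 to Sez6 (0.78). Wscd2 lay 0.68 from Fut2.

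Among themselves, Spon2 and Vipr2 were the closest members, at a distance of 0.45, both alike in count between the WT stages and both with a KO2 to KO1 ratio under 1. Fut2 and Itih2 came next at 0.59. The widest gap was 1.91 between Ulbp1 and Xkr4, and Ulbp1 was the farther member in the 4 widest gaps.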

How the data were processed

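The authors deposited 1 table of raw counts per gene for the 4 libraries. Per the methods and submitters' notes, reads from a stranded mRNA kit were trimmed with cutadapt 2.8, aligned to mm10 with HISAT2 2.1.0 and counted over exons by strand with featureCounts 2.0.0. Here counts were scaled with TMM factors in edgeR 4.0.16 (R 4.3.3), and a gene was kept where any library held 10 counts or more (14393 genes). Changes are differences of log2 CPM with a prior count of 2. Ratios come from the counts with exact Clopper-Pearson 95% intervals, and 3 counts were the floor. edgeR quasi-likelihood tests, and DESeq2 1.42.0, ran over all kept genes. With 1 library a WT stage, the spread against E8.5 WT came from the KO libraries alone, and p-values measure only the spread between these libraries. The calls by the criterion and by edgeR, and the log2 changes of edgeR, were tested on simulated counts. These were drawn with a set spread between libraries and not with one estimated from these data.

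The members and gene lists were chosen with earlier results of these data known. Named are the members, relatives past the criterion or nearest in family, neighbours, the 2 nearest profiles of each member, 3 genes on either side of the criterion, Ddx6 and markers that move with the members. Positions and 3′ UTRs come from GENCODE vM21, to which 23376 of 24421 symbols matched, and miRNAs and promoters from RefSeq. For a member, transcript features use the transcript with the longest coding sequence. Alternatives were DESeq2 size factors, no TMM factor, a prior count of 0.5, no filter, a minimum of 50 counts, a criterion of 2 and leaving out either KO library. Some items these rules would name are not reported here.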

Additional observations from a re-analysis of the deposited data

How the results depend on the processing

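All 7 members were above both WT libraries with DESeq2 size factors, without TMM factors and with a prior count of 0.5. With no filter and in either KO library alone they were so too, but that follows from how they were chosen. A minimum of 50 counts left 4 of them (53 genes in all against 108) and a criterion of 2 left 3 (3 in all). Without one KO library the count over all genes ran from 271 (KO1 alone) to 528 (KO2 alone), and the members' smallest change from 1.42 to 1.82. Relatives above E8.5 WT went from 3 to 0 under a minimum of 50 or a criterion of 2, and to between 6 and 13 with a single KO library. Relatives below it went from 2 to 0 without TMM factors or at a criterion of 2, to 4 with no filter, and to between 3 and 7 with a single KO library. Relatives above both WT libraries went from 1 to 2 with a prior count of 0.5, to 0 under a minimum of 50 or a criterion of 2, and to between 3 and 7 with a single KO library. Against E8.5 WT, where edgeR called 0 genes, DESeq2 called 35 and edgeR with no filter 7. Against both WT libraries, where edgeR called 0, DESeq2 called 32, and edgeR called between 1 (KO1 alone) and 51 (KO2 alone), the lone library being assumed to vary like the WT libraries. No edgeR test against E8.5 WT with a single KO library was possible, since no residual degree of freedom remains. The cause of these differences was not tested. A prior count of 0.5 raised the low members most, and Itih2 went from 3.35 to 5.24 as the mean log2 change against E7.5 WT. No paired analysis was possible because each WT stage has 1 library against 2 KO libraries, and the WT labels carry no replicate number. At the depth of these libraries Vipr2 and Itih2 rest on at most 25 counts in any library, so their ratios are known only within wide limits.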

Other observations

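The genes named here were chosen after their values were seen. Sets of 4 values stand in the order E7.5 wild type, E8.5 wild type, KO1, KO2. Among the relatives of Itih2, Vcan and Hapln1 of the hyaluronan matrix were the lowest in KO2 relative to KO1. Vcan, the large proteoglycan that binds hyaluronan, had 253 and 4580 counts in wild-type E7.5 and E8.5 embryos and 2373 and 1010 in KO1 and KO2, and its link protein Hapln1 had 140, 1854, 997 and 256. Relative to E8.5 WT on the log2 scale these genes were at -0.40 and -0.35 in KO1 and at -2.17 and -2.83 in KO2. From KO1 to KO2 the log2 difference was -1.77 for Vcan, -2.49 for Hapln1, -0.57 for the hyaluronan receptor Cd44, -0.28 for the synthase Has2, 0.52 for the hyaluronidase Hyal1 and 1.61 for the synthase Has3. Calcrl, the receptor of adrenomedullin in vessels, had 13 and 223 counts in wild-type E7.5 and E8.5 embryos and 119 and 23 in KO1 and KO2. Slc6a2, the noradrenaline transporter, had 14, 7, 4 and 176 counts, and Adcy7, an adenylyl cyclase, had 92, 47, 55 and 295, so that both were high in KO2 alone. No test of these differences between single libraries was made.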
